A study of Mus musculus with 8 samples.

Results

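Mouse lungs taken 25 h after an intratracheal dose were compared with lungs taken 7 h after it, over both treatments of the study. The study set mepenzolate against control lungs, and the comparison of times asks what changed between its 2 harvests. All 8 arrays of the series entered the comparison, 4 at each time, chosen by the time in the sample title. At each time 2 arrays came from lungs of mice given mepenzolate, an anticholinergic that blocks muscarinic acetylcholine receptors, and 2 from lungs of mice given vehicle. Mepenzolate was pipetted into the trachea in PBS while the mice were anaesthetised with chloral hydrate (500 mg/kg). That procedure is described for mepenzolate, and the vehicle dose is described no further in the sources used here. Strain, sex, age and the clock time of dosing and of harvest were not given in the sources used here. No group was left undosed, so dosing and anaesthesia are shared by all 4 groups. If dosing times were alike, harvests 18 h apart fell at different times of day. Time after dosing, time of day and any processing batch therefore cannot be told apart.

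Many lung transcripts follow the circadian clock, a feedback loop of transcription factors that runs in most cells. The heterodimer of BMAL1 (encoded by Arntl) and CLOCK binds E-box sequences and activates the Period and Cryptochrome genes, whose proteins then repress it, while the nuclear receptors REV-ERB (Nr1d1, Nr1d2) and ROR set the level of Arntl through a second loop. Output factors such as the PAR-bZIP proteins DBP, TEF and HLF pass the rhythm on through D-box sequences, and daily release of glucocorticoids acts on several of the same genes.

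Each array gave deposited log2 expression levels summarised by RMA (robust multi-array average), and 14953 genes were tested with limma, with treatment as a covariate. Differences are given on the log2 scale as 25 h minus 7 h with their standard error, and a gene passed at a Benjamini-Hochberg adjusted p under 0.05 over all genes tested. Whether replicate arrays stand for different mice is not stated, and the p-values cover only the variation among these 8 arrays, part of which may be technical. The lung markers Sftpc (13.49 to 13.56), Scgb1a1 (13.23 to 13.49) and Ager (12.30 to 12.49) were high on every array. Array medians ran from 6.70 to 6.77. Correlations between arrays of a replicate pair across all 34760 probes ran from 0.988 to 0.993, and those between times had the same range. The second mepenzolate array at 7 h stood apart in cell type markers. The mean of its 4 tested liver markers lay 1.045 above those genes' 8-array means, against -0.252 to -0.089 on the other arrays. Albumin (Alb) read 8.93 there and 5.94 to 6.39 elsewhere. On the same array, ciliated and club cell markers lay 0.380 and 0.585 below their means. H2-Ea, an MHC class II gene, read 11.35 on 1 vehicle array at 25 h, 11.78 on 1 vehicle array at 7 h and 6.33 to 7.08 on the other 6.

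Of the 14953 genes, 49 (0.328%) passed. At 25 h, 13 (0.0869%) were higher and 36 (0.241%) were lower. Among these 49, the largest changes were in the clock: Per1, Dbp, Ciart, Per2, Hlf and Per3 fell and Arntl rose. Among genes that passed outside the clock lists, Mettl21e and the small heat shock protein gene Hspb1 fell most, while Spon2 and Adm rose most. For 48 of the 49 genes, no array at 25 h overlapped any array at 7 h. Over all genes tested, 1001 (6.69%) had arrays that did not overlap. The median absolute difference was 0.524 among the 49 genes and 0.0587 among all genes tested. The same arrays chose the 49 genes, so their separation and the size of their differences are descriptions. Without that second mepenzolate array at 7 h, 18 genes passed, 16 of them among the 49. The count was 28 without the first mepenzolate array at 7 h. It was 61 without the first mepenzolate array at 25 h and 10 without the second. It was 22 or 16 without the first or the second vehicle array at 25 h, and 15 or 16 without the first or the second vehicle array at 7 h. Whichever array was left out, Arntl, Cd52, Hlf, Hspb1, Per1, Per2, Ppp1r3c, Tef and Tspan4 passed. Dio2, Dock2, Epha1, Prrg3, Scd1, Spaar, Timp3 and Wee1 passed in none of these fits. All 49 kept their direction, and none of their differences moved by over 1.5 times. Quantile normalization of the deposited values gave 29 higher and 49 lower genes, a larger share of higher genes than the 13 of 49 above.

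**Figure D1:**
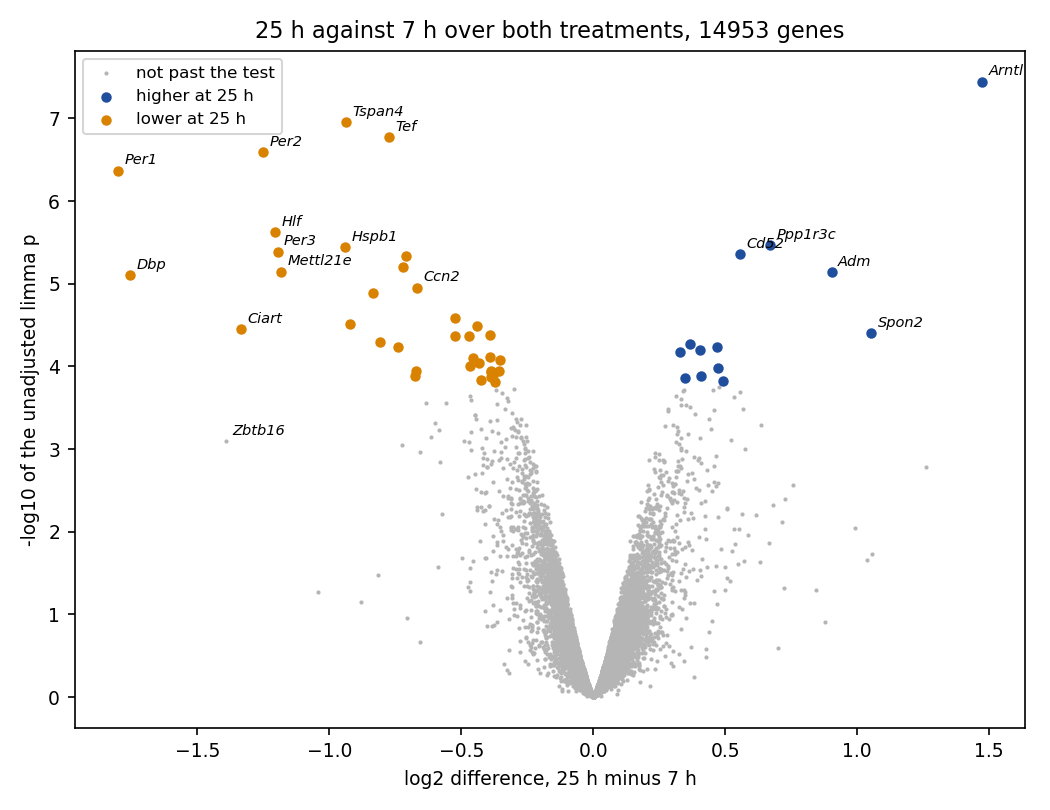
Each point is 1 of the 14953 genes tested. The horizontal axis gives the log2 difference, 25 h minus 7 h over both treatments, and the vertical axis the -log10 of the unadjusted limma p. Blue points are the 13 genes that were higher and orange points the 36 that were lower at 25 h. Arntl has the smallest p, and Per1 and Dbp lie farthest to the left.

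Of 38 tested members of the 4 clock lists (activators, repressors, kinases and ligases, output factors), 17 passed, 3 higher and 14 lower, against 0.328% of all genes tested. All gene lists used here were chosen with earlier results of these data known, so such contrasts are descriptions. Promoter windows are shown for 6 of the 17 genes. They have the largest differences among those with a motif of the clock or of the cAMP pathway within the 250 bases before the RefSeq start (GRCm38.p6). Dbp, Arntl and Per2 had larger differences than several of these 6 but no motif match or no promoter entry. They are written 5′ to 3′ on the strand of the gene. Capitals mark CACGTG (E-box) in Per1, Ciart, Bhlhe41 and Tspan4, TTATGTAA (D-box) in Per3 and TGACGTCA (cAMP response element) in Hlf.
Per1, chr11:69098699-69098948, plus strand: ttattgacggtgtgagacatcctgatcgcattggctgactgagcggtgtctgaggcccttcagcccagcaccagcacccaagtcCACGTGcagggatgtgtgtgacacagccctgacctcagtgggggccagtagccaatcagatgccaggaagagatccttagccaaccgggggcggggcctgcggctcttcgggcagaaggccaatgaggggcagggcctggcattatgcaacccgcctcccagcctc
Ciart, chr3:95882229-95882478, minus strand: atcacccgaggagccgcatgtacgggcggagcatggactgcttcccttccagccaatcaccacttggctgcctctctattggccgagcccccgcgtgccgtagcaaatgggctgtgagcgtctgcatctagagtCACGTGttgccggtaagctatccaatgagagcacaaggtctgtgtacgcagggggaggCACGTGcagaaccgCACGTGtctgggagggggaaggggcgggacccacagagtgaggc
Bhlhe41, chr6:145865421-145865670, minus strand: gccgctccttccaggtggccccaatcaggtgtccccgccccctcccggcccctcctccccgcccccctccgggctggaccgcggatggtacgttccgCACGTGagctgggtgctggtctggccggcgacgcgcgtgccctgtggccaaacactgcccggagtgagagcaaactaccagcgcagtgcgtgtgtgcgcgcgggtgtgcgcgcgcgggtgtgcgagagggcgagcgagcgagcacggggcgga
Tspan4, chr7:141476130-141476379, plus strand: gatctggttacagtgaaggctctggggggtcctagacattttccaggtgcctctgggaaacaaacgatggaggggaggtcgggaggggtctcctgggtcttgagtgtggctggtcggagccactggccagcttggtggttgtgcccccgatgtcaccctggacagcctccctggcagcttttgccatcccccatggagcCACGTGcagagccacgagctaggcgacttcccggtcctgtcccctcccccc
Per3, chr4:151044666-151044915, minus strand: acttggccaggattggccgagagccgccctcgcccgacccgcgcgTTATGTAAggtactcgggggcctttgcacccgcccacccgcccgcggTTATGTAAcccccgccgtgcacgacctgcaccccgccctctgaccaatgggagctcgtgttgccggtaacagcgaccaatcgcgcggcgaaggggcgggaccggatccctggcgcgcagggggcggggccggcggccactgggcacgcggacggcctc
Hlf, chr11:90390918-90391167, minus strand: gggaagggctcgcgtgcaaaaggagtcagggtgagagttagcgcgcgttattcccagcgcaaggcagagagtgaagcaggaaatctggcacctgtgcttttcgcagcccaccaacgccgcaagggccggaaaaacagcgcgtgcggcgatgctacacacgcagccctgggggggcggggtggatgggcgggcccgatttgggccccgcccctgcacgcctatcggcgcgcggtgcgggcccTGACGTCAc

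The E-box of Per1 began at position -166 from the start, that of Bhlhe41 at -153 and that of Tspan4 at -51. Ciart held 3, at -116, -58 and -44, and Per3 held D-boxes at -205 and -158. The window of Tspan4 is that of the second of its 2 listed starts. Tef, not shown, held an E-box before each of its starts, at -127 and -138. Ppp1r3c, which rose and is not shown, held an E-box at -104 and an E-prime box at -189. Over both strands, an E-box occurred in 5 of 12 clock-list genes that fell and had a promoter entry (41.7%). Among all tested clock-list genes with an entry, those that fell included, it occurred in 9 of 31 (29.0%). Outside the clock lists it occurred in 1 of 16 genes that fell (6.25%). It occurred in 1 of 7 genes that rose (14.3%) and in 1089 of 11800 of all tested genes with an entry (9.23%). The D-box, searched as TTATGTAA or TTACGTAA, occurred in 0.839% of all promoters and the cAMP response element in 2.76%. The E-prime box CACGTT occurred in 5.03% and the ROR element core TAGGTCA in 2.13%. Genes with several listed starts had 1 window for each, and a match describes the letters only.

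Among the activators, Arntl read 6.44 and 6.51 with vehicle and 6.59 and 6.22 with mepenzolate at 7 h. At 25 h it read 7.87 and 8.0 with vehicle and 7.80 and 7.99 with mepenzolate. All 4 arrays at 25 h lay more than 1 unit above all 4 at 7 h. The difference was 1.47 ± 0.09 (SE, n = 4 per time; limma adjusted p = 0.000535), a 2.78-fold rise. Clock, which encodes the partner of BMAL1, differed by 0.25 ± 0.08 (adjusted p = 0.281) and its times overlapped. Rora, a nuclear receptor that activates Arntl, read 9.17 to 9.29 at 7 h and 8.71 to 8.97 at 25 h. Those arrays did not overlap, but the difference of -0.37 ± 0.06 did not pass (adjusted p = 0.0541). Arntl2, a paralog of Arntl, differed by 0.07 ± 0.06.

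All 10 repressors were lower at 25 h, with a median difference of -0.877 against 0.00138 over all genes tested. Of them 6 passed, against 0.241% of all genes as lower. Per1, the Period gene that also responds quickly to cAMP and glucocorticoids, read 9.81 and 9.75 with vehicle and 9.48 and 9.65 with mepenzolate at 7 h. At 25 h it read 8.33 and 7.61 with vehicle and 7.91 and 7.64 with mepenzolate. The times were more than 1 unit apart, and Per1 fell by 1.80 ± 0.14 (adjusted p = 0.00128), or 3.49-fold. Per2 read 8.55, 8.66, 8.60 and 8.50 at 7 h and 7.29, 7.13, 7.60 and 7.29 at 25 h, each time in the order vehicle 1, vehicle 2, mepenzolate 1, mepenzolate 2. It fell by 1.25 ± 0.09 (adjusted p = 0.000961). Per3 was 8.43, 8.74, 8.50 and 8.50 at 7 h and 7.30, 7.08, 7.70 and 7.31 at 25 h in that order. Its times did not overlap either, and it fell by 1.20 ± 0.12 (adjusted p = 0.00631).

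Ciart, which encodes a repressor of CLOCK and BMAL1, ran from 7.92 to 8.59 at 7 h and from 6.50 to 7.31 at 25 h. It fell by 1.33 ± 0.18 (adjusted p = 0.025). A second, dimmer probe of Ciart differed by -0.85. Bhlhe41 (DEC2), a repressor that competes for E-boxes, ran from 7.49 to 7.72 at 7 h and from 6.42 to 7.03 at 25 h, and fell by 0.92 ± 0.12 (adjusted p = 0.0241). Nr1d2 (REV-ERB beta), which represses Arntl, ran from 9.98 to 10.23 at 7 h and from 9.11 to 9.55 at 25 h. It fell by 0.83 ± 0.10 (adjusted p = 0.0114). None of these 3 genes had overlapping times.

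The other 4 repressors did not pass. Nr1d1 (REV-ERB alpha) ran from 10.88 to 11.08 at 7 h and from 10.06 to 10.71 at 25 h, a difference of -0.61 ± 0.12 (adjusted p = 0.0948). Cry2 read 8.68 to 8.76 and then 8.27 to 8.48, a difference of -0.31 ± 0.06 (adjusted p = 0.086). Bhlhe40 (DEC1) differed by -0.41 ± 0.10 (adjusted p = 0.173). In these 3 genes every 25 h array lay below every 7 h array. Cry1 differed by -0.11 ± 0.07, with overlapping times.

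**Figure D2:**
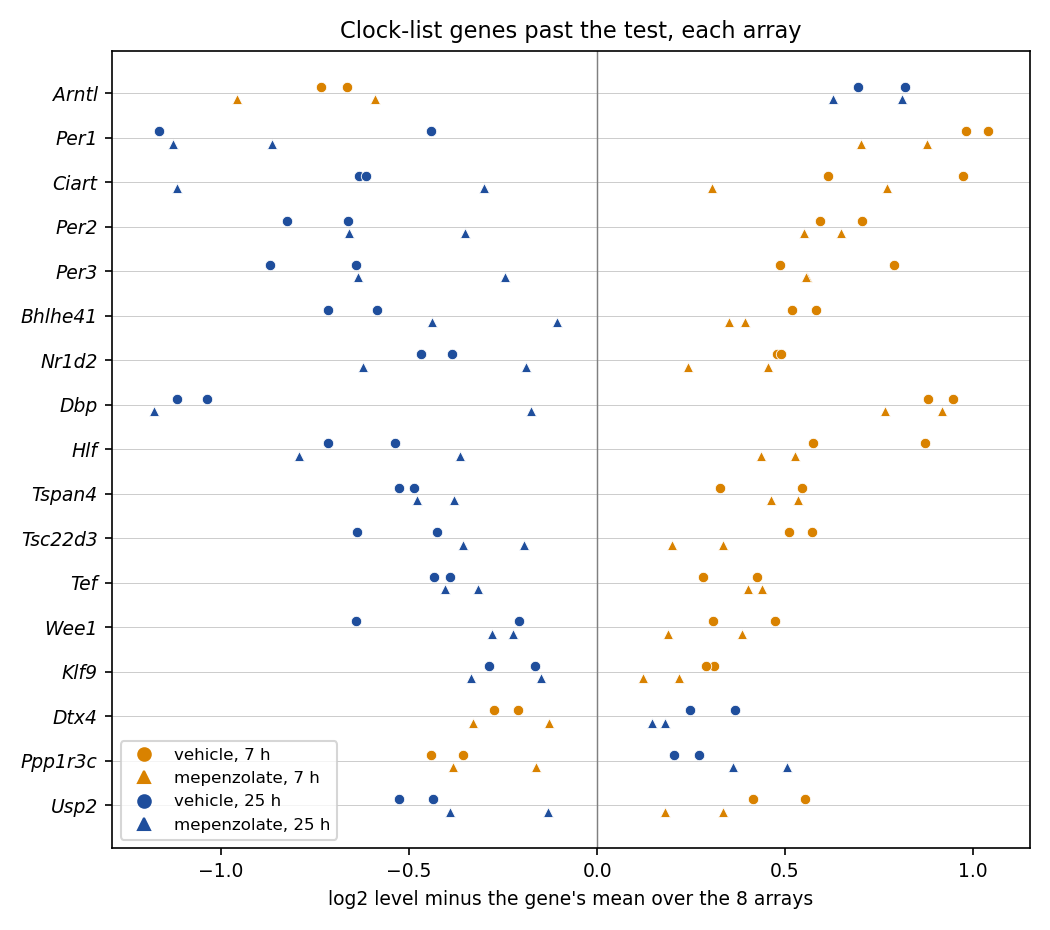
Each symbol is 1 array, placed at its log2 level minus the gene's mean over the 8 arrays; orange marks 7 h, blue 25 h, circles vehicle and triangles mepenzolate. The 17 clock-list genes that passed are shown, and in each the 4 arrays at 25 h lie apart from the 4 at 7 h. Arntl, Dtx4 and Ppp1r3c were higher at 25 h and the other 14 lower.

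Members of the output factor list changed in both directions. Of 16 tested, 7 passed as lower and 2 as higher, against 0.241% and 0.0869% of all genes, and the median difference was -0.395. The PAR-bZIP factor gene Dbp read 10.02 and 10.09 with vehicle and 9.91 and 10.06 with mepenzolate at 7 h. At 25 h it read 8.10 and 8.03 with vehicle and 8.97 and 7.96 with mepenzolate. The first mepenzolate array at 25 h was the highest of its time but still below every 7 h array. Dbp fell by 1.76 ± 0.19 (adjusted p = 0.00789), or 3.38-fold. Hlf ran from 8.19 to 8.63 at 7 h and from 6.96 to 7.39 at 25 h and fell by 1.21 ± 0.11 (adjusted p = 0.00595). Tef ran from 9.29 to 9.44 and then from 8.57 to 8.69, and fell by 0.77 ± 0.05 (adjusted p = 0.000837). All 3 PAR-bZIP genes thus had separate times. Nfil3, whose protein represses the D-boxes that they activate, differed by 0.41 ± 0.11 (adjusted p = 0.2), and its first mepenzolate array at 25 h lay among the 7 h arrays.

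Tspan4, a tetraspanin gene, was among the tightest: 10.46, 10.68, 10.59 and 10.66 at 7 h against 9.60, 9.64, 9.75 and 9.65 at 25 h, in the order vehicle 1, vehicle 2, mepenzolate 1, mepenzolate 2. It fell by 0.94 ± 0.06 (adjusted p = 0.000826). Tsc22d3 (GILZ), a mediator of glucocorticoid action, ran from 9.84 to 10.21 at 7 h and from 9.0 to 9.45 at 25 h and fell by 0.81 ± 0.11 (adjusted p = 0.0289). Wee1, the kinase that restrains entry into mitosis, fell by 0.68 ± 0.11 (adjusted p = 0.0444), and Klf9, a glucocorticoid-induced repressor, by 0.47 ± 0.06 (adjusted p = 0.0257). Those that rose were Ppp1r3c and Dtx4. Ppp1r3c, which targets a phosphatase to glycogen, ran from 7.47 to 7.75 at 7 h and from 8.11 to 8.41 at 25 h, a difference of 0.67 ± 0.07 (adjusted p = 0.00631). Dtx4, a ubiquitin ligase of the Notch pathway, rose by 0.47 ± 0.07 (adjusted p = 0.0302). Coq10b (-0.45 ± 0.08, adjusted p = 0.0738) and the haem synthesis gene Alas1 (-0.34 ± 0.08, adjusted p = 0.13) did not pass, although their arrays did not overlap. Bmp2k, Nampt, Klf10 and Lonrf3 had overlapping times and adjusted p of at least 0.654.

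Of 8 kinases, ligases and other regulators of clock proteins, the deubiquitinase gene Usp2 passed, against 0.241% of all genes as lower. It ran from 8.0 to 8.37 at 7 h and from 7.29 to 7.69 at 25 h and fell by 0.74 ± 0.10 (adjusted p = 0.0302). The casein kinase genes Csnk1d (-0.08 ± 0.05) and Csnk1e (-0.14 ± 0.06) did not pass. Gsk3b, Csnk2a1, Btrc, Fbxl21 and Timeless differed by -0.07 to 0.03. The median of this list was -0.0705.

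Leaving out 1 array changed how many clock genes passed more than their values. Of the repressors, 2 passed without the second mepenzolate array at 25 h and 3 without the second mepenzolate array at 7 h or any 1 of the 4 vehicle arrays. The output factors that fell numbered 3 without the second mepenzolate array at 25 h and 4 without any of those other 5. The median of the repressors stayed between -0.99 and -0.836.

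Glucocorticoid-induced genes formed the next group. Of 22 tested, 21 were lower at 25 h, while 50.7% of all genes lay above 0. As lower, 7 passed against 0.241% of all genes, and 15 had an unadjusted limma p under 0.05 against 5.48% of all genes. The median difference was -0.382. Per1, Tsc22d3 and Klf9, described above, belong to this list as well. Errfi1, a feedback inhibitor of the EGF receptor, read 10.72, 10.66, 10.25 and 10.45 at 7 h and 9.95, 9.83, 10.02 and 9.59 at 25 h in the array order above. It fell by 0.67 ± 0.10 (adjusted p = 0.0427). Sult1a1, a sulfotransferase gene, ran from 8.39 to 8.65 and then from 7.98 to 8.10 and fell by 0.46 ± 0.07 (adjusted p = 0.0362). Glul, which encodes glutamine synthetase, fell by 0.39 ± 0.06 (adjusted p = 0.0427), and its second probe differed by -0.51.

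Angptl4, an inhibitor of lipoprotein lipase, was the gene that passed with overlapping times. At 7 h it read 8.36 and 8.16 with vehicle against 7.66 and 7.66 with mepenzolate, and at 25 h 7.71 and 7.57 against 7.20 and 7.28. Within each treatment the times did not overlap, and it fell by 0.52 ± 0.07 (adjusted p = 0.0257). Zbtb16 (PLZF), a transcription factor gene, had a larger difference that did not pass. At 7 h it read 9.92 and 10.44 with vehicle against 8.79 and 9.24 with mepenzolate, and at 25 h 8.26 and 7.90 against 8.52 and 8.16. The vehicle arrays at 7 h were the highest, and the difference over both treatments was -1.39 (adjusted p = 0.097). Of this list, 8 genes passed without the first mepenzolate array at 25 h and 3 without the first at 7 h. Without any 1 of the other 6 arrays 1 passed, the clock gene Per1.

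Other genes that fell came from several pathways. Hspb1, a small heat shock protein, read 10.46, 10.45, 10.26 and 10.68 at 7 h and 9.55, 9.55, 9.62 and 9.37 at 25 h in the order given. It fell by 0.94 ± 0.09 (adjusted p = 0.00631), and its second probe differed by -0.83. It was the 1 gene of 22 on the heat shock list that passed, and the median of that list was -0.0541. Over all genes tested 0.241% passed as lower, a share that also stands beside the list counts of Ccn2 and Herpud1 below. Mettl21e, a lysine methyltransferase gene, ran from 7.43 to 8.12 and then from 6.43 to 6.95 and fell by 1.18 ± 0.13 (adjusted p = 0.00765). Ccn2 (CTGF), a matrix protein gene induced by mechanical strain and TGF beta, read 11.36 to 11.50 and then 10.57 to 10.90. It fell by 0.67 ± 0.08 (adjusted p = 0.0104), as 1 of 27 immediate early genes. Fos family and Egr members of that list did not pass. Herpud1, of the unfolded protein response, fell by 0.43 ± 0.06 (adjusted p = 0.039), as 1 of 23, and passed without the first mepenzolate array of either time but not without any 1 of the other 6 arrays. Ccn2 did not pass without the second vehicle array at 25 h or without either vehicle array at 7 h.

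In energy metabolism, Cpt1a, the enzyme that commits fatty acids to mitochondrial oxidation, ran from 10.54 to 10.72 and then from 10.10 to 10.37. It fell by 0.37 ± 0.06 (adjusted p = 0.0466). Pdk4, which restrains glucose oxidation, did not pass (-0.72 ± 0.15, adjusted p = 0.102). Scd1, the desaturase that makes monounsaturated fatty acids, ran from 12.38 to 12.56 at 7 h and from 12.86 to 13.02 at 25 h and rose by 0.41 ± 0.06 (adjusted p = 0.0444). Acaca, the acetyl-CoA carboxylase gene, differed by 0.36 ± 0.07 (adjusted p = 0.0908). Other lipogenesis genes went the other way: Dgat2 differed by -0.57 (adjusted p = 0.225) and Elovl6 by -0.19 (adjusted p = 0.359). Of the 18 lipogenesis genes, 11 lay above 0 and 7 below, while 50.7% of all genes lay above 0. Of 21 genes of fatty acid oxidation, Angptl4 and Cpt1a passed as lower (0.241% of all genes), and of 18 lipogenesis genes Scd1 passed as higher (0.0869%). Without the first mepenzolate array at 25 h 3 fatty acid oxidation genes passed, and none did without any 1 of the other 7 arrays. Scd1 passed in none of the 8 fits that left out an array. The medians of these lists were -0.0482 and 0.0403. Pfkfb3, the enzyme that raises fructose-2,6-bisphosphate and so drives glycolysis, ran from 8.76 to 9.13 and then from 8.12 to 8.29. It fell by 0.71 ± 0.07 (adjusted p = 0.00631).

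The remaining 12 genes passed as lower and stand on none of the lists; they are named here after their values were seen. They were Plcb1, Irx1, Arg2, Csrnp1, Sema5a, AA986860, Rgcc, Ppl, Nt5dc2, Prrg3, Timp3 and Epha1, with differences from -0.72 (Plcb1, a phospholipase C) to -0.35 (Epha1, an ephrin receptor). Irx1, a transcription factor of lung development, fell by 0.52 ± 0.07 (adjusted p = 0.0215). Arg2, the mitochondrial arginase, fell by 0.47 ± 0.07 (adjusted p = 0.0411). Timp3, an inhibitor of metalloproteinases held in the matrix, fell by 0.36 ± 0.05 (adjusted p = 0.0427).

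Among the genes that rose, Spon2, an extracellular matrix protein of the spondin family, read 7.08, 6.95, 7.22 and 7.02 at 7 h. At 25 h it read 8.34, 8.52, 7.90 and 7.72, again as vehicle 1, vehicle 2, mepenzolate 1, mepenzolate 2. The vehicle arrays at 25 h were the highest, and no array overlapped between the times. The difference was 1.05 ± 0.14 (adjusted p = 0.0257). Adm, which encodes the vasodilator peptide adrenomedullin, read 7.04, 6.93, 7.23 and 6.93 and then 8.01, 8.07, 7.70 and 7.96. It rose by 0.90 ± 0.10 (adjusted p = 0.00765), while Pfkfb3, on the same list of hypoxia-responsive genes, fell. Dio2, the deiodinase that activates thyroid hormone, rose by 0.47 ± 0.07 (adjusted p = 0.0427). Spaar, which encodes a small peptide acting on mTORC1, rose by 0.35 ± 0.05 (adjusted p = 0.0444). With 13 genes that rose, the fourteenth place of the naming rule went to the smallest p among those that did not pass, that of Snora44, a small nucleolar RNA (0.48 ± 0.08, adjusted p = 0.0535).

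Another 5 genes that rose, Cd52, Ikzf3, Dock2, Arhgap4 and Septin1, stand on none of the lists. Cd52, a surface glycoprotein of lymphocytes, read 9.40, 9.36, 9.37 and 9.39 at 7 h and 9.83, 9.91, 9.93 and 10.07 at 25 h. Its 7 h arrays lay within 0.1 unit of each other, and it rose by 0.56 ± 0.06 (adjusted p = 0.00631). Ikzf3 (Aiolos), a transcription factor of lymphocytes, rose by 0.49 ± 0.08 (adjusted p = 0.0466). Dock2, the Rac activator of migrating leukocytes, rose by 0.41 ± 0.06 (adjusted p = 0.0315). Arhgap4 (0.37 ± 0.05, adjusted p = 0.0299) and Septin1 (0.33 ± 0.05, adjusted p = 0.0322) also rose, with separate times. With each array left out in turn, Cd52 passed in all 8 fits, Ikzf3, Arhgap4 and Septin1 in 1 each and Dock2 in 0.

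No B cell marker passed, yet all 13 tested lay above 0, as did 50.7% of all genes tested, with a median difference of 0.425, and 12 had an unadjusted p under 0.05 as higher, against 4.31% of all genes tested. Cd79a, part of the B cell receptor, read 8.85, 8.14, 8.35 and 8.40 at 7 h and 8.81, 9.57, 8.95 and 9.14 at 25 h. The first vehicle array at 25 h thus lay below the first at 7 h, as it did for Ms4a1 (CD20) at 8.05 against 8.17. Cd79a differed by 0.68 ± 0.18 (adjusted p = 0.204) and Ms4a1 by 0.72 ± 0.21 (adjusted p = 0.248). Cd22, an inhibitory coreceptor, had times that did not overlap and differed by 0.40 ± 0.09 (adjusted p = 0.121). The mean over the list, relative to the 8-array mean of each gene, ran from -0.317 to -0.038 at 7 h and from -0.155 to 0.486 at 25 h. All 14 T cell markers were also above 0 (median 0.189), and 8 had an unadjusted p under 0.05 as higher. The T cell median was 0.0844 in vehicle and 0.285 in mepenzolate lungs, and the B cell median 0.299 and 0.599. Cd3e, a CD3 component of the T cell receptor, ran from 8.20 to 8.43 and then from 8.51 to 8.79, a difference of 0.30 ± 0.08 (adjusted p = 0.173). Cd8b1, the CD8 beta chain, differed by 0.46 ± 0.11 (adjusted p = 0.163). In whole lung, a change in the number of cells of a type and a change in RNA per cell cannot be told apart. The lymphoid precursor genes Rag1 (5.15 to 5.55) and Dntt (4.79 to 4.97) lay below the filter level of 5.93 on all 8 arrays. Ptcra, a further precursor gene, lay above that level on all 8 (6.35 to 6.74). How far lymphocyte markers account for Cd52, Ikzf3 and Dock2 was not tested.

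**Figure D3:**
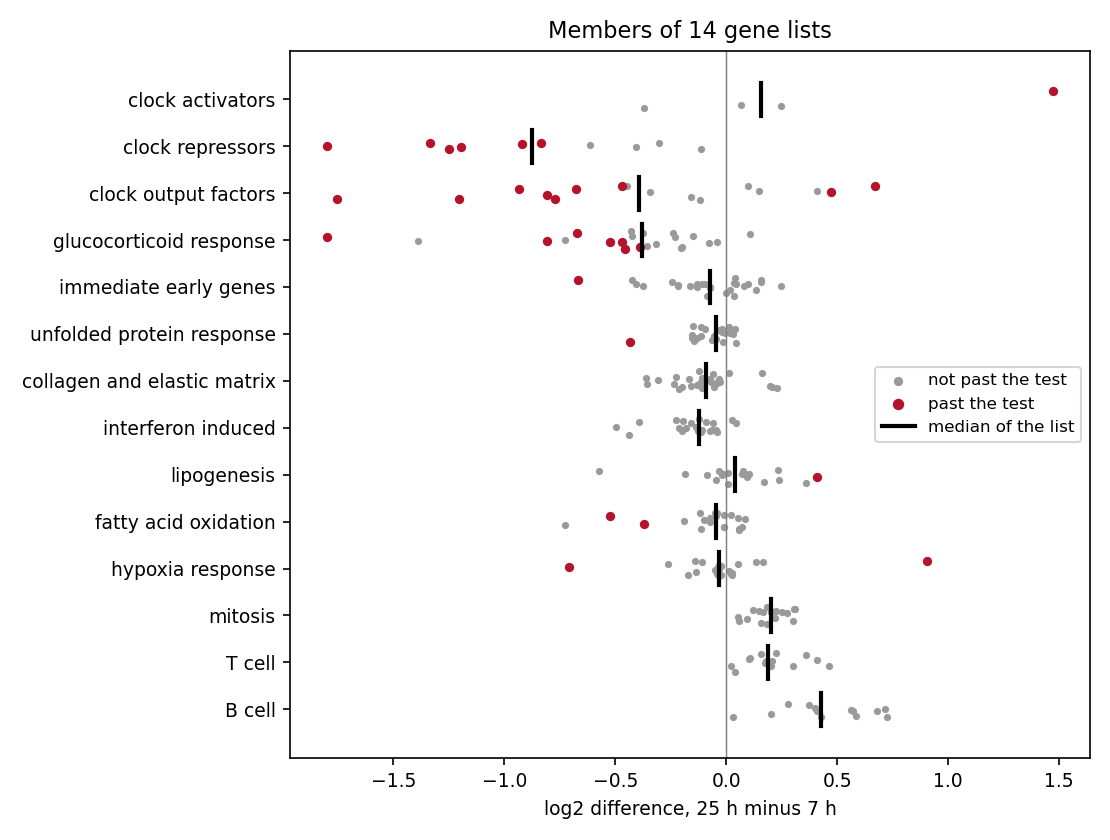
Each point is 1 tested gene, placed at its log2 difference (25 h minus 7 h), for 14 gene lists; red points passed the test and black bars are list medians. Clock repressors (median -0.877) and glucocorticoid-response genes (-0.382) lie mainly to the left, B cell markers (0.425), T cell markers (0.189) and mitosis genes (0.201) to the right.

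Mitosis genes showed small differences in 1 direction. None passed, all 19 tested lay above 0 (median 0.201) against 50.7% of all genes, and 9 had an unadjusted limma p under 0.05 as higher against 4.31%. Top2a, the topoisomerase of dividing cells, ran from 6.43 to 6.66 at 7 h and from 6.72 to 6.95 at 25 h, a difference of 0.31 ± 0.08 (adjusted p = 0.176). Mki67, the proliferation marker Ki-67, differed by 0.31 ± 0.10 (adjusted p = 0.341) with overlapping times. The list median was 0.318 in vehicle and 0.0757 in mepenzolate lungs. Of 9 monocyte markers, 7 lay above 0 (median 0.199). Cd300e, a receptor of patrolling monocytes, ran from 7.20 to 7.71 and then from 7.78 to 8.08, and did not pass (0.45 ± 0.09, adjusted p = 0.0876). All 9 platelet markers were above 0 (median 0.228), but the median was 0.0328 in vehicle and 0.401 in mepenzolate lungs.

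Interferon-induced genes went the other way: 20 of 22 lay below 0 (median -0.125), while 50.7% of all genes lay above 0. None passed, and 3 had an unadjusted limma p under 0.05 as lower, against 5.48% of all genes. Oasl2, an antiviral protein gene, ran from 8.94 to 9.05 at 7 h and from 8.44 to 8.77 at 25 h, a difference of -0.39 ± 0.07 (adjusted p = 0.0807). Ifit3 differed by -0.44 ± 0.12 (adjusted p = 0.216), also without overlap. Of 28 collagen and elastic matrix genes, 23 lay below 0 (median -0.091), none passed, and 8 had an unadjusted p under 0.05 as lower (5.48% of all genes) and 1 as higher (4.31%). For 8 of them the 25 h arrays lay below all 7 h arrays, against 4.15% of all genes. Serpinh1, the collagen chaperone HSP47, differed by -0.36 ± 0.07 (adjusted p = 0.0904) and Col4a1, a basement membrane collagen, by -0.23 ± 0.06 (adjusted p = 0.212). Without the second mepenzolate array at 25 h, the medians of these lists were -0.0777 and -0.0426.

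**Figure D4:**
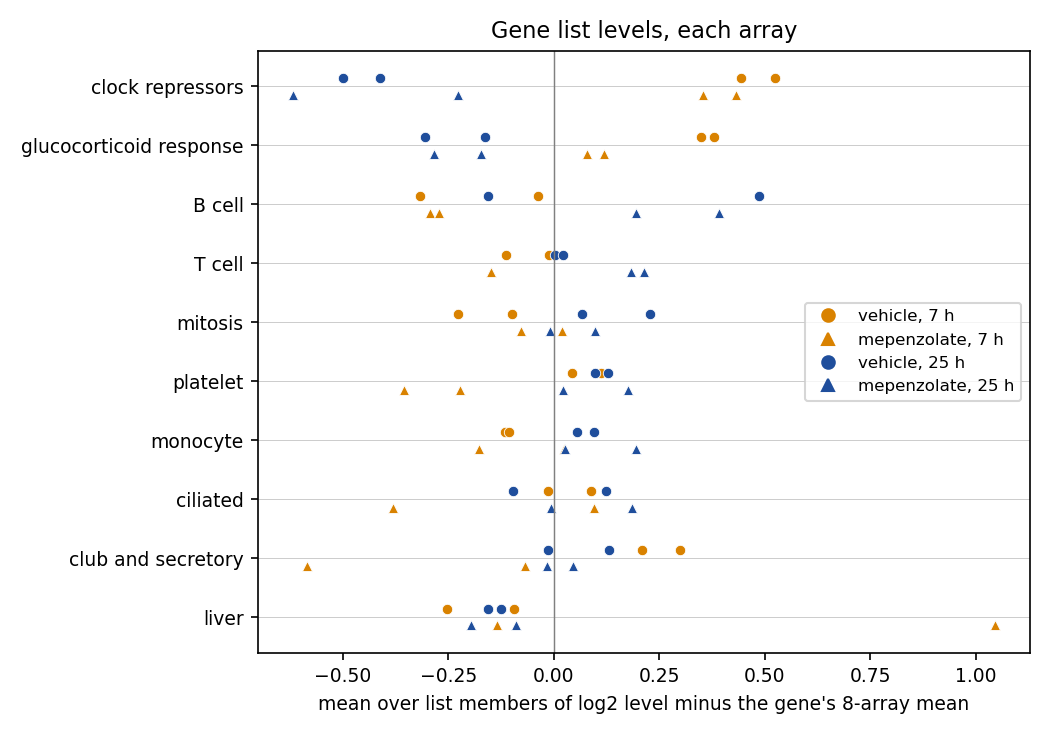
Each symbol is 1 array, placed at the mean over a list's tested genes of the log2 level minus the gene's 8-array mean; orange marks 7 h, blue 25 h, circles vehicle and triangles mepenzolate. Clock repressor and glucocorticoid-response levels separate the times, B cell levels overlap between -0.155 and -0.038, and liver markers stand at 1.045 on the second mepenzolate array at 7 h.

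The time difference was then taken within each treatment. In vehicle lungs 13 genes (0.0869%) passed, 12 of them among the 49; the other was Zbtb16 (-2.10 ± 0.22, adjusted p = 0.0255). In mepenzolate lungs Arntl, Per2, Tef and Tspan4 passed (0.0268%), all among the 49. Arntl rose by 1.46 ± 0.13 in vehicle and by 1.49 ± 0.13 in mepenzolate lungs. Tef fell by 0.77 ± 0.08 and 0.78 ± 0.08, and Tspan4 by 0.94 ± 0.09 and 0.93 ± 0.09. All 49 genes had the same direction in both treatments, and 34 had the larger difference in vehicle lungs, 28 of the 36 that fell and 6 of the 13 that rose. How often that held over all genes tested was not counted, and the interaction test below called 0 of 14953 genes. The arrays of both treatments chose the 49 genes, so the shared direction and these counts are descriptions. Without either vehicle array at 7 h, none passed in either treatment with limma. At an unadjusted p under 0.05 there were then 572 genes in vehicle and 803 in mepenzolate lungs without the first of these arrays, and 839 and 803 without the second. Each fit without 1 array left 1 array in a group. Without a vehicle array at 25 h or a mepenzolate array, genes passing in mepenzolate lungs were mostly not Arntl, Per2, Tef or Tspan4. In vehicle lungs, what passed without the second vehicle array at 25 h was not among the 13.

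The difference between the treatments was itself tested, as an interaction of time and treatment. With limma 0 of 14953 genes (0%) passed, the smallest adjusted p was 1, and 400 (2.68%) had an unadjusted p under 0.05. Of the 49 genes, 5 had an unadjusted interaction p under 0.05. Spon2 rose by 1.42 ± 0.11 in vehicle and by 0.69 ± 0.11 in mepenzolate lungs, an interaction of -0.72 ± 0.16 (unadjusted p = 0.00176). Tsc22d3 fell by 1.07 ± 0.10 in vehicle and by 0.54 ± 0.10 in mepenzolate lungs (unadjusted p = 0.0065), and Bhlhe41 by 1.20 ± 0.11 and 0.64 ± 0.11 (unadjusted p = 0.0088). Usp2 and Sult1a1 had unadjusted p of 0.0213 and 0.0413. The smallest interaction p outside the 49 genes belonged to Padi4, Rtn1, Cd3g and Grid1, more positive in mepenzolate lungs, and to Gbp4, Sdhaf4 and Fbxo44, more negative. Padi4, a neutrophil enzyme that citrullinates histones, differed by -1.15 ± 0.20 in vehicle and 0.89 ± 0.20 in mepenzolate lungs. Cd3g, another CD3 gene, differed by 0.02 ± 0.10 and 0.80 ± 0.10. None of these passed after adjustment. Without the first mepenzolate array at 7 h, 2 interactions passed, and 1 passed without the second or without the second vehicle array at 25 h.

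**Figure D5:**
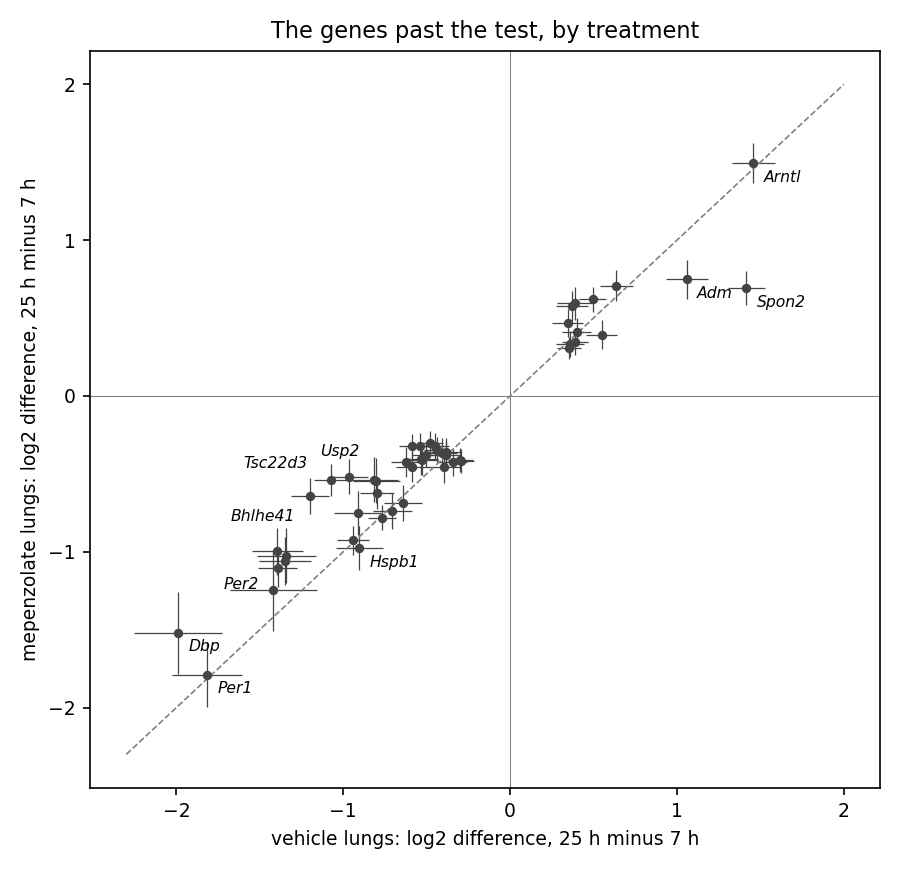
Each point is 1 of the 49 genes that passed, with its log2 difference (25 h minus 7 h) in vehicle lungs on the horizontal axis and in mepenzolate lungs on the vertical axis. Bars are standard errors and the dashed line marks equal differences. Arntl and Per1 lie near the line, and Spon2 (1.42 against 0.69) lies farthest below it among the genes that rose.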

How the data were processed

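The authors deposited log2 levels for 34760 Affymetrix probes, made with RMA per the submitters' processing notes (version: not given in the sources used here). The method equalises intensity distributions between arrays and compresses differences of dim genes. Probes with exactly 1 gene symbol (21640, besides 1321 with several and 11799 unnamed) were kept, 21553 of them matched RefSeq (Entrez identifier), and the brightest probe per gene gave 19937 genes. Genes whose mean reached the 25th percentile (log2 5.93), 14953 in all, were tested with limma 3.58.1 in R 4.3.3 (with the data.table package, version 1.17.8), for time with treatment as covariate (5 residual degrees of freedom), and within treatments and for the interaction with 1 mean per group (4 residual degrees of freedom). P-values were adjusted by Benjamini-Hochberg over all genes tested. The fit was tested on simulated data.

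Named genes were the 14 largest differences in each direction past adjusted p 0.05 without overlap of times (an empty place went to the smallest unadjusted p, given as not passed), all members of the clock lists, of other lists up to 6 members that passed and up to 3 more by moderated t, and the 4 smallest interaction p in each direction. The comparison and the 55 lists (971 entries, 822 tested) were chosen with earlier results of these data known. Lists are described by counts and medians, without a test. Replicate numbers were not taken to pair arrays, since the labels do not say that they do. Deviations of same-numbered arrays correlated by -0.021 to 0.396 between groups, which does not settle it. A fit with the replicate number as a block is given below. Alternatives covered filters, normalization, probe choice, model settings and each array left out. Arrays have no read depth; their number limits the precision.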

Additional observations from a re-analysis of the deposited data

Results flagged for a closer look

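Among 142 groups of 4 arrays (71 genes at 2 times), 6 held an array far from the other 3 by Dixon's criterion, which chance meets in about 1 in 20 groups. At 25 h, the first mepenzolate array read 8.97 for Dbp, where the next was 8.10, and 13.02 for Scd1, where the next was 12.87. The first vehicle array at 25 h read 6.39 for Fbxl21, a ligase of cryptochromes, where the next was 6.17. The second vehicle array at 25 h read 7.68 for Wee1, where the next was 8.04. At 7 h, the first mepenzolate array read 9.98 for Nr1d2, below the next at 10.19, and 9.64 for Sema5a, above the next at 9.45. Each of these values except that of Fbxl21, which did not pass, lay on the side of its own time.

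Of 6267 tested probes without a single gene symbol, which the comparison did not use, 1 passed as higher at 25 h with limma, by 1.82 on the log2 scale.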

How the results depend on the processing

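All 49 genes kept their direction under each of 18 alternatives in which they were tested. Of them, 27 passed under every such alternative that kept all arrays. Arntl, Bhlhe41, Mettl21e, Dio2 and Spaar were not tested with the filter at the median. The number of genes that passed moved more: 28 without the filter, 104 with a filter at the median, 78 after quantile normalization, 120 with a trended robust prior, 120 with array weights, and 10 to 61 with 1 array left out. In vehicle lungs the main count of 13 became 7 after quantile normalization, 33 with the trended prior, 55 with array weights and 0 to 14 with 1 array left out. In mepenzolate lungs the count of 4 became 1 without the filter, 0 after quantile normalization and 0 with array weights. With mepenzolate arrays alone 1 gene passed, and it was not among those 4. With 1 array left out, which leaves 1 array in a group, any genes that passed were mostly not among those 4. The interaction gave 0 to 2 with 1 array left out and 0 otherwise. With the replicate number as a block, which the labels do not say pairs arrays, 67 genes passed over both treatments, 17 in vehicle and 9 in mepenzolate lungs. The causes were not tested. Signal near background limits dim genes, and the 2 arrays per group limit the tests within a treatment.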

Other observations

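Of 15 genes of airway ion and water transport, 11 lay below 0 (median -0.0497), while 50.7% of all genes lay above 0. None passed, and 6 had an unadjusted limma p under 0.05 as lower (5.48% of all genes) and 1 as higher (4.31%). Leaving out single arrays moved the median to -0.021 (first mepenzolate array at 7 h), -0.142 (second mepenzolate array at 7 h) and -0.0988 (first mepenzolate array at 25 h). Among vehicle arrays it moved to -0.107 (first at 25 h) and -0.0812 (second at 7 h). Aqp5, a water channel of alveolar type 1 cells, ran from 10.82 to 10.91 at 7 h and from 10.51 to 10.72 at 25 h, a difference of -0.25 ± 0.06 (limma adjusted p = 0.145). Atp1b1, a subunit of the sodium pump, differed by -0.23 ± 0.06 (adjusted p = 0.171) and Scnn1a, a subunit of the epithelial sodium channel, by -0.15 ± 0.05 (adjusted p = 0.38). In these 3 genes the times did not overlap. The cold-inducible RNA-binding protein gene Cirbp differed by 0.31 ± 0.11 (adjusted p = 0.355) with overlapping times.

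Muscarinic receptors and acetylcholine-handling genes, the pathway that mepenzolate acts on, showed no gene past the limma test among 7, and 0 had an unadjusted p under 0.05. Chrm2 differed by -0.09 ± 0.10 and Chrm3 by -0.18 ± 0.15. Cytosolic ribosomal protein genes lay above 0 in 34 of 36 cases, against 50.7% of all genes tested. Their median was 0.0863, and it was 0.0193 without the second mepenzolate array at 25 h. All 19 ciliated cell markers lay above 0 (median 0.104), and the median was 0.00352 without the second mepenzolate array at 7 h. Alveolar type 2 (median -0.0292) and endothelial (-0.0595) markers lay near 0, and none of either list passed; at an unadjusted p under 0.05 there were 0 and 1.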
